A study of Mus musculus with 12 samples.

Results

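The cytosolic ribosomal protein genes were followed in tumor and cerebellum of mice with a Brca2 and Trp53 mutation. Members were the rows of the expression table whose symbol is Rpl or Rps and a number, optionally ending in a, x or l, together with Rplp0, Rplp1, Rplp2 and Rpsa. The rule used names and no measured value, and it found 82 of 24091 genes. Of these, 47 have a large-subunit symbol, 32 a small-subunit symbol and 3 belong to the P-stalk.

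RNA of 12 mouse samples was sequenced after poly(A) selection. The 3 medulloblastomas and the 3 samples of adjacent cerebellum came from the same animals, GB344, GB359 and GB370, which carry Brca2Δex3-4 together with Trp53-/-. The 6 tumor-free cerebella, called controls below, came from 3 Brca2-mut;Trp53-WT mice (GB361, GB508 and GB512) and 3 Brca2-WT;Trp53-mut mice (GB517, GB519 and GB520). In the Brca2 mutants, Cre under the human GFAP promoter cut Brca2 exons 3 and 4 out of neural cells during development of the brain, whereas the Trp53 knockout was global. Controls were collected at P90 per the study, and tumor-bearing mice when a tumor or a humane endpoint was reached. No sample was wild type for both genes, so each control shares one of the mutations with the tumors. Every double mutant mouse bore a tumor, so against controls the double mutant genotype and the tumor cannot be told apart. Tumor against adjacent cerebellum keeps the genotype fixed, but both tissues came from tumor-bearing mice. Gene-level values do not read the deleted exons, and the targeted genes were therefore no check of the labels: Trp53 was at 124 to 131 TPM in the tumors, 33.1 to 37.2 TPM in Brca2-mut;Trp53-WT and 47.1 to 49.4 TPM in Brca2-WT;Trp53-mut cerebella, and Brca2 at 8.22 to 14.6 TPM in tumors and 3.24 to 4.40 TPM in controls. Granule progenitor and tumor markers (Atoh1, Mki67, Top2a, Gli1, Sfrp1 and Ccnd2, 6 of 6 found) summed to 995 to 2167 TPM in tumors, 74.4 to 623 TPM in adjacent cerebellum and 26.7 to 50.4 TPM in controls, and oligodendrocyte, Purkinje and granule neuron markers were lower in the tumors. Choroid plexus markers, led by Ttr, summed to 3925 to 5133 TPM in Brca2-WT;Trp53-mut cerebella and 12.4 to 860 TPM in Brca2-mut;Trp53-WT cerebella.

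Each ribosome carries one copy of nearly every ribosomal protein, so the genes are expressed together in all growing cells, and unassembled proteins are degraded. Their mRNAs belong to the TOP class, in which transcription starts at a C followed by a run of pyrimidines, and the translation of these mRNAs is controlled by mTORC1 through LARP1. Free Rpl5 and Rpl11 bind MDM2 when assembly fails and so stabilize p53, and granule cell progenitors, from which SHH medulloblastoma arises, use MYCN to sustain growth and proliferation.

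Start sites of selected members are shown first, because the pyrimidine tract is the sequence feature that defines TOP mRNAs. Each line holds the 15 bases before and the 15 bases from the RefSeq start site on the coding strand of GRCm38.p6 (mm10), and capitals mark the longest tract of a C followed by at least 4 pyrimidines. Rps18, Rps6, Rpl28, Rpl35, Rpl7a and Rplp2 are abundant members, and Rpl39l, Rpl10l and Rpl3l, the last shown with 2 annotated starts, are variants that were near 0 TPM here. The starts shown for Rpl7a and Rpl39l lie downstream of the annotated gene starts at chr2:26910685 and chr16:10170197.
Rps18 (chr17:33955651-33955680, minus strand): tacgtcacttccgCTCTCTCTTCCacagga
Rps6 (chr4:86857353-86857382, minus strand): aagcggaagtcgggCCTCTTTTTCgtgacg
Rpl28 (chr7:4792950-4792979, plus strand): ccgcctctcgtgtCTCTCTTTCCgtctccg
Rpl35 (chr2:39005117-39005146, minus strand): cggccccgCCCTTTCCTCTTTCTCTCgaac
Rpl7a (chr2:26910792-26910821, plus strand): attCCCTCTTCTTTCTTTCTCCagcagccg
Rplp2 (chr7:141447636-141447665, plus strand): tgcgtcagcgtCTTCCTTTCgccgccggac
Rpl39l (chr16:10170213-10170242, plus strand): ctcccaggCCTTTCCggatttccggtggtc
Rpl10l (chr12:66284387-66284416, minus strand): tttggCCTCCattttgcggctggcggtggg
Rpl3l (chr17:24727811-24727840, plus strand): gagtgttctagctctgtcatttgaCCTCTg
Rpl3l, downstream start (chr17:24732670-24732699, plus strand): gtcatcaacagctacagtgccccaaatgtc

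Promoter sequences of 300 bases (250 before and 50 after the start) were found for 61 of 82 members. A C followed by at least 4 pyrimidines lay exactly at an annotated start in 14 of these (23.0%), against 3.06% of the 11876 genes with a promoter and a mean of at least 1 TPM. A tract beginning within 20 bases of a start was present in 51 members (83.6%) and in 54.8% of those genes, and 10 members with a promoter had none in that window. The ETS core CCGGAAG, searched on both strands, was present in 25 members (41.0%) and in 17.7% of expressed genes. The E-box CACGTG, the site class bound by MYC and MAX, was in 6 members (9.84%) and 11.1% of expressed genes. TATAAA was in 11.5% of members and 9.13% of expressed genes, CCAAT in 31.1% and 42.7%, and AAGATGG, the core of the YY1 motif, in 14.8% and 7.93%. These are letter matches within the window, and no binding was measured.

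The ETS core is shown in the promoters of Rps18, Rpl34, Rpl11 and Rpl15, the 4 members with the largest tumor to control difference among those with a match in the 100 bases before to 15 bases after the start. Capitals mark the core on either strand.
Rps18 (chr17:33955651-33955765, minus strand): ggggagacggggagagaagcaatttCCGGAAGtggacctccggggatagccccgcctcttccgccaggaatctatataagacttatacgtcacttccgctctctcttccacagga
Rpl34 (chr3:130730323-130730437, minus strand): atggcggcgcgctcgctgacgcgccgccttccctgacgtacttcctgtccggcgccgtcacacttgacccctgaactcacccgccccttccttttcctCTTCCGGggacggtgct
Rpl11 (chr4:136053379-136053493, minus strand): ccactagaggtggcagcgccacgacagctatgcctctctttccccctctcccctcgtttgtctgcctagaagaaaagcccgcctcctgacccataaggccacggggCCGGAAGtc
Rpl15 (chr14:18270972-18271086, minus strand): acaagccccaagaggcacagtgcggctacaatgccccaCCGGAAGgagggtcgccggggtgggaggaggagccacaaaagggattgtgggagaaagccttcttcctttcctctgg

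Ribosomal protein mRNAs took up a far larger part of the tumor transcriptome than of the cerebellum. The values are TPM, a length-corrected share of each library, so the sum over members can be read as a percentage. The 82 genes held 16.7% of TPM in tumor GB344, 15% in tumor GB359 and 14.1% in tumor GB370 (15.3% ± 1.36, SD, n = 3). Adjacent cerebellum of the same mice held 7.14%, 7.09% and 4.54%. Brca2-mut;Trp53-WT cerebella held 4.57%, 4.61% and 4.94%, and Brca2-WT;Trp53-mut cerebella 4.31%, 4.33% and 4.0% (4.46% ± 0.320, SD, n = 6 for all controls). The lowest tumor was 2.85 times the highest control, and within the mice tumor exceeded adjacent tissue by 2.35, 2.12 and 3.10 times. Of the 100 genes with the highest TPM, 58 to 63 were members in the tumors and 9 to 17 in the controls.

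In bulk samples more cells that express these genes and more mRNA per cell cannot be told apart, and because TPM are shares, a larger share for members leaves less for all other genes (84.7% in tumors and 95.5% in controls on average). The read depth is unknown, and precision rests on the spread between mice. One RNA, Mir6236, held 4.25% to 11.5% of TPM, and without it the members' share was 16.3% ± 1.60 (SD, n = 3) in tumors and 4.87% ± 0.390 (SD, n = 6) in controls.

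**Figure D1:**
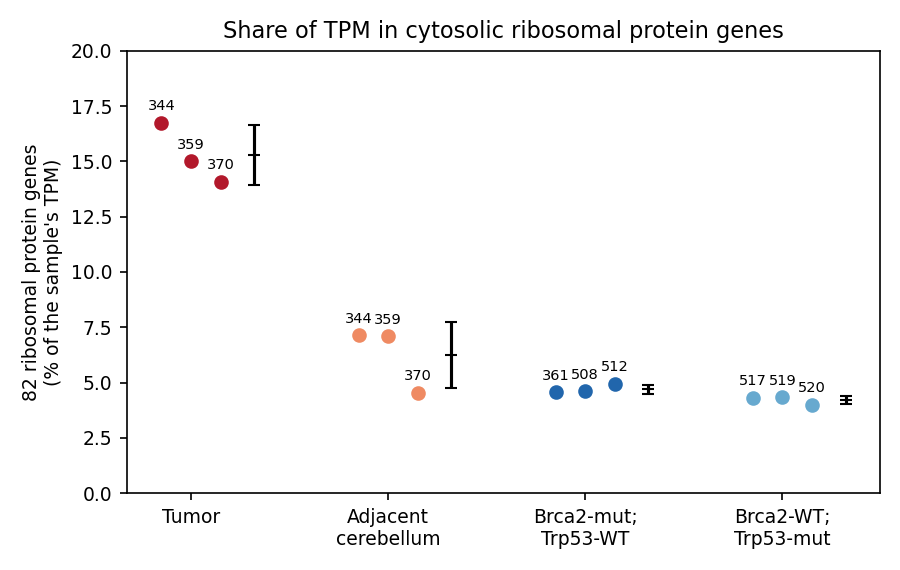
Each point is 1 sample, labelled with the mouse number, and gives the summed TPM of the 82 members as a percentage of the sample's TPM. Black bars are the group mean and SD (n = 3), and the 3 tumors lie between 14.1% and 16.7%, above every cerebellum.

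Small-subunit genes stood higher relative to large-subunit genes in the tumors. The summed TPM of small-subunit members divided by that of large-subunit members averaged 0.847 in tumors (SD 0.0394, n = 3), 0.773 in adjacent cerebellum (SD 0.0326, n = 3) and 0.739 in controls (SD 0.0149, n = 6). The lowest tumor was at 0.816 and the highest control at 0.759, so tumors and controls did not overlap. The order of levels among members was largely kept, with a Spearman correlation across 77 genes of 0.828 between tumor and control means, 0.965 between adjacent and control means and 0.995 between the control genotypes. These correlations are descriptions across genes of the same libraries, and genes are not independent replicates. Sample-to-sample variation differed as well, the median coefficient of variation over members being 11.8% in tumors, 24.6% in adjacent cerebellum, and 5.09% and 5.15% in the control genotypes.

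The most abundant members over all samples were Rplp1, Rps15, Rpl41, Rpl23a, Rps28 and Rpl28. Rplp1, which forms the acidic stalk with Rplp2 and is held by Rplp0, was at 4504, 4289 and 4347 TPM in tumors and at 1313 to 1759 TPM in controls. Rpl41, the shortest protein of the ribosome, was at 4019, 3187 and 3716 TPM in tumors and 970 to 1270 TPM in controls. At the other end were Rps15a and Rps20, near 70 and 80 TPM on average, and the variant genes Rps4l, Rpl32l, Rpl39l, Rpl3l and Rpl10l. Rpl10l and Rpl39l are best known from the testis and Rpl3l from striated muscle, and the levels of Rpl32l, Rpl39l, Rpl3l and Rpl10l, 0.899, 0.498, 0.472 and 0.0288 TPM on average, were too low for the test between tumors and controls. The other 78 members passed the expression filter of at least 1 TPM in at least 3 samples, and each of them reached 1 TPM in all 12 samples. Processed copies are common in this family and the authors' quantification could divide reads between a gene and a near-identical copy. The copies named as such in the table were low, the highest being Rpl37rt at 17.8 to 35.0 TPM, and Rps15a-ps4 and Rps15a-ps6 did not exceed 3.01 TPM in any sample.

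Nearly every ribosomal protein gene rose in the tumors. Of the 78 members tested, 76 were higher in tumors than in controls when a call required an adjusted p under 0.01 with a change of 1 or more on the log2 scale (limma on log2(TPM + 1), Benjamini-Hochberg over all genes), whereas 14.4% of the 16241 genes tested were called higher. Only Rps4l was called lower, as were 21.5% of all genes. Rps23 was the one member that rose by less than the fold limit (it passed the limit without tumor GB359, at 1.01, with median-of-ratios scaling, at 1.05, and against Brca2-WT;Trp53-mut controls alone, at 1.02), so 77 members were higher at an adjusted p under 0.05 with no fold limit (31.8% of all genes), and for the same 77 every tumor was above every control (28.3% of all genes). The median log2 fold change was 1.78 over members (quartiles 1.54 and 1.99) and -0.11 over all genes tested. It was 1.84 for the 32 small-subunit genes, 1.63 for the 43 large-subunit genes tested and 1.79 for the P-stalk, and 18 members reached 2. Scaling all samples by quantile normalization, which forces equal distributions, left 57 of the 78 members called higher with a median of 1.32.

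**Figure D2:**
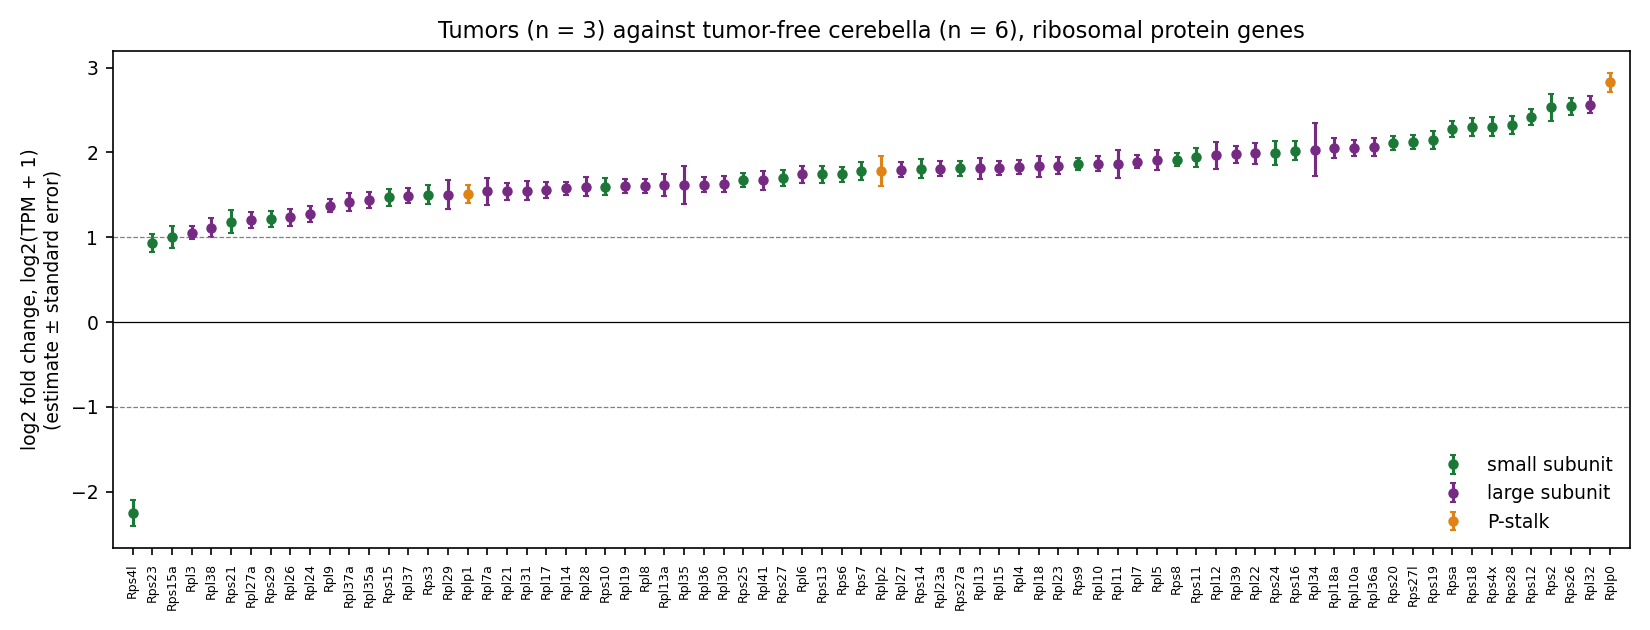
Points give the log2 fold change of 76 of the 78 tested members, 3 tumors against 6 controls, on the log2(TPM + 1) scale, with the standard error as bars and dashed lines at the fold limit. Colours mark the subunit, and all members shown except Rps4l lie above 0, from 0.93 for Rps23 to 2.82 for Rplp0.

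Rplp0, the scaffold of the stalk that recruits elongation factors and a common reference gene in quantitative PCR, rose most. It was at 2464, 2541 and 2486 TPM in tumors, 915, 897 and 369 TPM in adjacent cerebellum, and 324 to 451 TPM in controls. No tumor came near a control, and the log2 fold change was 2.82 ± 0.11 (SE, adjusted p = 1.71e-08). Rpl32, a large-subunit protein, followed at 3908, 3972 and 4282 TPM in tumors and 587 to 792 TPM in controls (2.56 ± 0.10, adjusted p = 1.69e-08). Rps26, which lines the mRNA exit channel and is mutated in Diamond-Blackfan anemia, was at 4176, 3653 and 4514 TPM in tumors and 643 to 776 TPM in controls (2.54 ± 0.10, adjusted p = 1.69e-08). Rps2, a small-subunit protein at the mRNA entry side, was at 2550, 2251 and 2495 TPM against 330.5 to 586 TPM (2.53 ± 0.16). Rps12 (2.42), Rps28 (2.32) and Rps4x (2.30), all of the small subunit, were also among the 8 largest rises.

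The other genes used as references rose too. Rps18 rose by 2.30 ± 0.10 on the log2 scale and Rpl13a by 1.61 ± 0.13, so none of the 3 reference genes Rplp0, Rps18 and Rpl13a was level between tumor and cerebellum in TPM. Rps6, the S6 kinase substrate, was at 1316, 1169 and 1043 TPM in tumors and 328 to 383 TPM in controls, a rise of 1.74 ± 0.09. Rpsa, also known as the laminin receptor precursor, was at 1290, 1240 and 1361 TPM against 241 to 323 TPM and rose by 2.27 ± 0.09.

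Members known to bind MDM2 rose to differing degrees. Rpl5 was at 990, 900 and 689 TPM in tumors and 205 to 250 TPM in controls (log2 fold change 1.91 ± 0.12), and Rpl11 at 4152, 2536 and 2317 TPM against 712 to 890 TPM (1.87 ± 0.17). Rpl23 rose by 1.84 ± 0.10, Rps7 by 1.78 ± 0.11 and Rpl26, looked up after its value was known, by 1.24 ± 0.10. Of the Diamond-Blackfan anemia genes, Rps19, the most often mutated, rose by 2.15 ± 0.11 and Rpl35a by 1.43 ± 0.09.

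The smallest rises were found in Rps23, Rps15a, Rpl3, Rpl38, Rps21, Rpl27a and Rps29. Rps23, a protein of the decoding center, was at 1774, 1389 and 1490 TPM in tumors and 703 to 910 TPM in controls (0.93 ± 0.10, adjusted p = 1.78e-05). Every tumor was above every control, but the difference stayed below the fold limit. Rps23 lies on chromosome 13, whose 618 other tested genes had medians of -0.47, -0.26 and -0.37 in the 3 tumors relative to the control mean, against -0.18, -0.04 and -0.13 for all chromosomes. The part of this in the Rps23 value was not tested. Rps15a was at 135, 107 and 83.5 TPM in tumors and 50.5 to 55.2 TPM in controls (1.0 ± 0.13), and its call was lost in 5 of the 9 fits that left out 1 sample, with a fold of 0.83 without tumor GB344 and of 0.99 to just under 1 without tumor GB359, GB508, GB512 or GB520. The Rps15a call was also lost with TPM rescaled without Mir6236 (0.97) and against Brca2-WT;Trp53-mut controls alone (0.97). Rpl3, a protein near the peptidyl transferase center, was at 1281, 1366 and 1228 TPM against 569 to 652 TPM (1.06 ± 0.07), and Rpl38, known for its role in patterning of the axial skeleton, at 2237, 1832 and 1782 TPM against 744 to 991 TPM (1.11 ± 0.11).

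Rps4l fell while its X-linked relative Rps4x rose. Rps4l lies on chromosome 6 (chr6:148354656-148355596, mm10) and was at 6.76, 8.57 and 11.9 TPM in tumors, 37.4, 49.4 and 65.1 TPM in adjacent cerebellum, and 40.8 to 54.3 TPM in controls (log2 fold change -2.25 ± 0.15, adjusted p = 3.48e-07). Rps4x was at 1914, 2140 and 1681 TPM in tumors, 804, 742 and 526 TPM in adjacent cerebellum, and 345 to 445 TPM in controls. The tumors were the lowest samples for one gene and the highest for the other.

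Further paralogs shifted against each other inside the same libraries. The log2 TPM ratio of a variant gene to its ubiquitous paralog does not depend on the scaling between samples, and 6 pairs were expressed highly enough to compare. In each of the 6 pairs all 3 tumors lay apart from all 6 controls (exact two-sided permutation p = 0.0238, the smallest that 3 against 6 samples allow; adjusted p = 0.0238 over 6 pairs). With 3 against 3 samples such a test cannot go below 0.1, and no pair could pass between tumor and adjacent cerebellum or between the control genotypes. Rps4l to Rps4x differed by -4.67 between tumors and controls. Rpl22l1 to Rpl22 went from 1.16 ± 0.14 (SD, n = 6) in controls to -1.62 ± 0.65 (SD, n = 3) in tumors, a turn from more Rpl22l1 to more Rpl22. Rpl22, which binds and represses the Rpl22l1 mRNA, was at 448, 293 and 324 TPM in tumors and 79.1 to 94.6 TPM in controls, whereas Rpl22l1 averaged 116 TPM in tumors (SD 31.1, n = 3) and 195 TPM in controls (SD 12.4, n = 6), with a log2 fold change of -0.77 ± 0.13 (adjusted p = 0.000433) that was smaller than the fold limit.

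Smaller shifts were those of Rpl36al and Rpl7l1. Rpl36al to Rpl36a differed by -0.99 and Rpl7l1 to Rpl7 by -0.88, both variant genes being higher in tumors but by less than their paralogs (Rpl36al 1.07 ± 0.13, Rpl7l1 1.0 ± 0.08). The pair of elongation factors that swap in neurons, Eef1a2 to Eef1a1, had the largest difference of the 6 pairs, -6.52. Rps27l, a p53 target gene, was the exception, since it rose more than Rps27: the ratio was 0.44 higher in tumors, which came from Trp53-/- mice. Rps27l was at 299, 305 and 306 TPM in tumors, 67.6, 70.2 and 78.4 TPM in Brca2-mut;Trp53-WT cerebella and 62.7, 71.8 and 63.5 TPM in Brca2-WT;Trp53-mut cerebella. The last 2 groups overlapped, and the ratio differed by -0.05 between them (exact permutation p = 0.6). In adjacent cerebellum the ratios of Rpl22l1, Rpl36al and Rpl7l1 to their paralogs were lower than in controls by 1.02, 0.47 and 0.48 (exact permutation p = 0.0238 each, adjusted p = 0.0476 over 6 pairs), again without overlap.

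**Figure D3:**
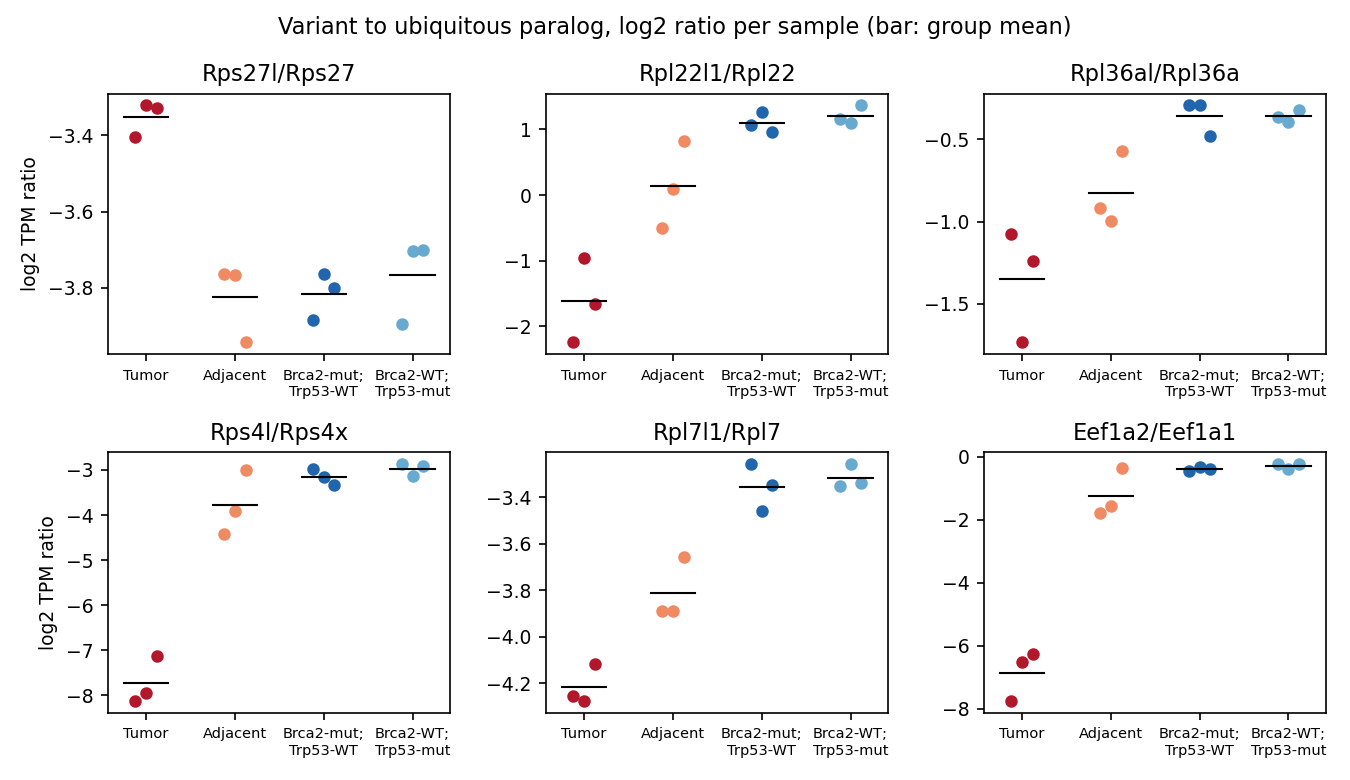
Each panel gives the log2 TPM ratio of a variant gene to its ubiquitous paralog, 1 point per sample in 4 groups of 3, with the group mean as a bar; vertical scales differ between panels. The 3 tumors lie below all 6 controls in 5 panels and above them for Rps27l/Rps27.

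Within the same animals, the tumor also carried more ribosomal protein mRNA than the adjacent cerebellum. The fit did not pair the tissues by mouse. Of 79 members tested, 60 were called higher (63 with the mouse as a replicate block) and 1, Rps4l, lower, where 4.76% and 18.0% of the 15845 genes tested were called. At an adjusted p under 0.05 with no fold limit, 77 were higher (18.1% of all genes), and for 77 all tumors lay above all adjacent samples (23.7% of all genes). The median log2 fold change was 1.31 over members and -0.14 over all genes. Rpl32l, at 0.624 TPM in tumors (SD 0.576, n = 3) and 1.24 TPM in adjacent cerebellum (SD 0.439, n = 3), was the member that did not pass in either direction. Mouse by mouse, the median member was higher in tumor by 1.23 (GB344), 1.09 (GB359) and 1.58 (GB370), and 77 of 78 members were higher in tumor in each. The median over all genes was -0.24, -0.08 and -0.15 in these mice. The count past the strict limit rested on single samples and on scaling: it was 16, 7 and 9 without tumor GB344, GB359 or GB370, 45, 14 and 49 without the adjacent sample of these mice, 37 with both tissues of GB370 left out, and 21 with quantile normalization.

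The largest estimates belonged to Rplp0 (1.89 ± 0.36, adjusted p = 0.00540), Rps26 (1.83 ± 0.30), Rps12 (1.77 ± 0.32) and Rpl32 (1.77 ± 0.28). Rps2, among the 4 largest rises against controls, had an estimate of 1.63 ± 0.29 here. These 2 comparisons share the tumor samples. The smallest rises belonged to Rps15a (0.72 ± 0.20, adjusted p = 0.0217) and Rpl3 (0.78 ± 0.17, adjusted p = 0.00989), and Rps4l fell by 2.35 on the log2 scale.

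Adjacent cerebellum lay between tumor and controls in GB344 and GB359 and at the control level in GB370. No member passed the strict limit against controls in either direction (0.224% of 16091 genes were called higher and 0.0124% lower, limma), while 68 of 79 had an unadjusted p under 0.05, as did 34.5% of all genes. At an adjusted p under 0.05, 35 members were higher and 0 lower (10.1% of all genes were higher). This count rested on single samples: it was 73 without GB370, 0 without GB344, 2 without GB359, and 5 to 18 with 1 of the controls left out. All 3 adjacent samples exceeded all controls for 10 members (11.7% of all genes). The median log2 fold change was 0.45 over members and 0.07 over all genes, and all 79 estimates were positive, as were 59.5% of those of all genes.

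The 3 adjacent samples were not alike. Relative to the control mean, the median member was higher by 0.67 in GB344, 0.66 in GB359 and 0.03 in GB370, and 76, 77 and 11 of 78 members lay above every control, where 37.9%, 33.5% and 27.6% of all genes did. The gene with the largest estimate was Rplp0 (0.93 ± 0.26, adjusted p = 0.0383 but a fold under the limit), followed by Rps2 (0.90 ± 0.23), Rps4x (0.82 ± 0.14) and Rpl32 (0.79 ± 0.18). The lowest estimates were those of Rps4l (0.10 ± 0.15), Rps23 (0.12 ± 0.10), Rpl38 (0.20 ± 0.11) and Rplp1 (0.23 ± 0.15), none of which passed. Expressed as a percentage of the way from the control mean to the tumor mean, the members' share of TPM was at 24.8% in GB344, 24.3% in GB359 and 0.717% in GB370. All 6 tumor markers were also lowest in GB370, while the order of GB344 and GB359 varied. Atoh1, the granule progenitor factor, was at 26.1%, 22.2% and 2.16%, the Hedgehog target Gli1 at 27.7%, 24.3% and 3.55%, Mki67 at 51.3%, 28.7% and 1.40%, Top2a at 43.1%, 23.4% and 1.83%, Ccnd2 at 37.9%, 26.8% and 2.68%, and Sfrp1 at 26.8%, 31.3% and 2.06%. Gabra6, a marker of mature granule neurons that is lower in tumors, was at 45.1%, 27.0% and 29.6% of the way. The other granule neuron markers did not all follow. In adjacent GB344, GB359 and GB370, Slc17a7 was at 322.1, 423 and 472.8 TPM (387.8 to 509.6 TPM in controls). Grin2c was at 185.8, 288.7 and 260 TPM (155.9 to 279.3 TPM in controls), and Calb2 at 325.4, 686 and 385.6 TPM (406.9 to 681.4 TPM). The part of these cells in the members' values was not tested.

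Between the control genotypes no member passed a threshold. Of 78 tested, 0 were called higher and 0 lower by limma (0.0128% and 0.0449% of 15575 genes) and 0 were higher at an adjusted p under 0.05 (0.0385% of genes). Of the 78 estimates, 77 were higher in Brca2-mut;Trp53-WT than in Brca2-WT;Trp53-mut cerebella (34.2% of all genes), 32 had an unadjusted p under 0.05 (20.1% of all genes), and for 42 all 3 samples of the former lay above all 3 of the latter (6.7% of all genes). The median difference was 0.15 on the log2 scale over members and -0.07 over all genes. Rpl35 came closest to the threshold, with 795, 748 and 805 TPM against 635, 652 and 622 TPM (0.30 ± 0.06, adjusted p = 0.0747). Rps4x was at 429, 391 and 445 TPM against 345, 358.8 and 350 TPM (0.26 ± 0.06, adjusted p = 0.102), and Rps2 differed by 0.37 ± 0.14. The largest estimate, Rpl34 with 0.51 ± 0.36, came with 1 low sample, GB517 at 226 TPM against 466 to 720 TPM in the other 5 controls. At the other end Rps15a was at 51.6 ± 1.5 TPM (SD, n = 3) and 53.9 ± 2.14 TPM (SD, n = 3), the single negative estimate (-0.06 ± 0.06). Summed markers of several cell types also separated these groups, choroid plexus as given above. Purkinje cells were at 4588 to 5649 TPM against 3303 to 3572 TPM, and Bergmann glia and astrocytes at 1316 to 1528 TPM against 1251 to 1303 TPM. Of the glial markers, Slc1a3 and Gdf10 separated the groups and the others overlapped. Gfap was at 117.4 to 162.3 TPM against 147 to 181.4 TPM, and Aqp4 at 127.6 to 184.3 TPM against 128.4 to 172 TPM. Aldh1l1 was at 57.87 to 65.99 TPM against 50.92 to 61.05 TPM. Granule neurons were at 1455 to 1909 TPM against 1938 to 2061 TPM, and of their single markers only Grin2c did not overlap. The low granule progenitor markers barely differed, at 29.3 to 50.4 TPM against 26.7 to 29.2 TPM, and the 50.4 TPM was GB512. Among them Gli1 was higher in Brca2-mut;Trp53-WT cerebella (17.59 to 21.42 TPM against 15.22 to 17.36 TPM). Sfrp1 was lower there (2.929 to 5.361 TPM against 5.98 to 6.452 TPM). The part of these cell types in the members' values was not tested.

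The tumors differed among themselves, and 1 tumor stood apart for members on one chromosome segment. Of 78 members, 60 were highest in tumor GB344 and 51 lowest in tumor GB370. The matching shares over all genes were not counted. Over the 16163 other genes, the median relative to the other tumors was -0.11 in GB344, 0.10 in GB359 and 0.01 in GB370. Rpl35 (chr2:39001581-39005131) was at 3105, 2452 and 1323 TPM in GB344, GB359 and GB370. Rpl7a (chr2:26910685-26913312) was at 2116, 2109 and 1214 TPM, and Rpl12 (chr2:32961712-32964045) at 2495, 2282 and 1484 TPM. Tumor GB370 was lower than the mean of the other tumors by 1.06, 0.80 and 0.69 on the log2 scale for these 3, while the median over the other 75 members was -0.16 (quartiles -0.28 and -0.06). Only 4 members were lower by over 0.6, the fourth being Rplp2 on chromosome 7 with 3147, 2048 and 1555 TPM (-0.71).

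Neighbouring genes moved with the 3 members. The 340 other tested genes that start within the first 40 Mb of chromosome 2 had a median of -0.58 in tumor GB370 relative to the other tumors, 291 of them being lower, while the 944 genes from 40 Mb on had a median of 0.04. Rps21, near the far end of chromosome 2 (chr2:180257379-180258444), was at 1675, 1659 and 2040 TPM and was highest in GB370. Adjacent cerebellum of GB370 had a median of 0.06 over the 340 genes relative to controls. These genes and the segment were picked after their values were seen and have no test, and DNA copy number was not analysed here. Across the tumors, Rpl35 had a standard error of 0.23 in the comparison with controls, one of the widest among members, and still rose by 1.61.

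**Figure D4:**
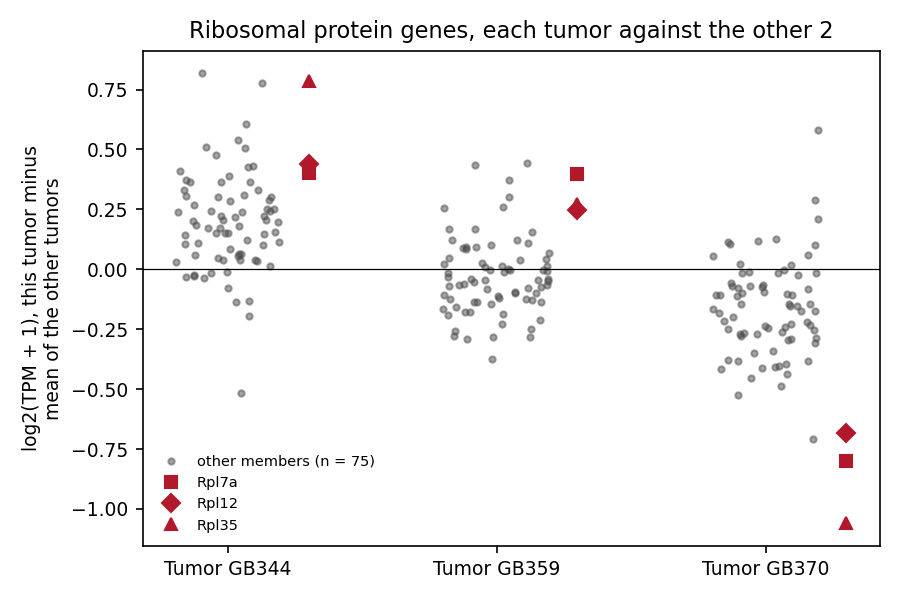
Points give log2(TPM + 1) of each tested member in 1 tumor minus the mean of the other 2 tumors, with Rpl7a, Rpl12 and Rpl35 in red. In GB370 the red symbols lie between -1.06 and -0.69, below nearly all of the other 75 members.

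Lists of genes that work with the ribosomal proteins differed in how many members rose in the tumors. At an adjusted p under 0.01 with a log2 change of 1 or more (limma), 14.4% of the 16241 genes tested were called higher. By this rule 21.5% were called lower, and both shares stand beside every list below. Of 7 ribosome components outside the naming rule, 5 were called higher than in controls and 0 lower (median log2 fold change 1.2), among them Rack1, the scaffold on the small subunit (2.35 ± 0.11), Rps3a1 (1.82 ± 0.11), Fau, which encodes a fusion with a ubiquitin-like protein (1.2 ± 0.10), and Rpl36al, whose fold fell below the limit without tumor GB344 (0.87) and against Brca2-mut;Trp53-WT controls alone (0.97). Of 16 other TOP mRNAs, 12 were called higher and 0 lower (median 1.69), led by Npm1, Rack1 and Pabpc1 (2.51 ± 0.12, 2.35 ± 0.11 and 2.27 ± 0.10). Vim, a cytoskeletal gene on that list, was at 260 TPM in tumors (SD 35.1, n = 3) and 296 TPM in controls (SD 29.8, n = 6). Some genes stand on more than one of the lists.

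Ribosome assembly genes rose in large part. Of 78 ribosome biogenesis genes, 45 were called higher and 0 lower (median 1.09), with Npm1 (2.51), the methyltransferase gene Fbl (2.50 ± 0.13) and the snoRNP gene Nop58 (2.50 ± 0.12) at the top and Gnl3l (-0.87 ± 0.10) at the bottom. Of 20 RNA polymerase I and rDNA transcription genes, 8 were called higher and 1 lower (median 0.80), including Polr1e (1.67 ± 0.15) and Polr1a (1.62 ± 0.13). The lower call was Polr2l, a subunit shared by the nuclear polymerases, whose fold lay at the limit. The call was lost without tumor GB359 (-0.85) or GB370 (-0.89), without GB508 (-0.97), narrowly without GB517, with median-of-ratios scaling (-0.89), with quantile normalization (-0.86) and against Brca2-WT;Trp53-mut controls alone (-0.99). Translation factors were mixed, with 16 of 37 called higher and 2 lower (median 0.86). Eif4ebp1, the cap-binding inhibitor controlled by mTORC1, was at 64.6 TPM in tumors (SD 24.0, n = 3) and 5.21 TPM in controls (SD 2.07, n = 6) (3.38 ± 0.31), while the neuronal factor Eef1a2 fell by 4.54 and Eif4a2 by 1.34 as Eif4a1 rose by 2.11.

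The mitochondrial ribosome and the mTORC1 genes gave other values. Of 78 mitochondrial ribosome genes, 2 were called higher and 0 lower (median 0.31), where 14.4% and 21.5% of all genes tested were called. At an adjusted p under 0.05 with no fold limit 39 were higher and 11 lower, as were 5165 and 6408 of the 16241 genes tested. The 2 were Mrpl52 (1.40 ± 0.13) and Mrps35, whose fold was at the limit and fell to 0.82 without tumor GB370, 0.96 without GB508 and just under the limit without GB517, and to 0.95 against Brca2-WT;Trp53-mut controls alone and 0.97 with TPM rescaled without Mir6236, each of which ended its call. Mrpl48 had the lowest estimate (-0.94 ± 0.07). Of 15 genes of mTORC1, S6 kinase and LARP1, 2 were called higher and 0 lower (median -0.29). At an adjusted p under 0.05 with no fold limit 4 were higher and 8 lower, beside the same 5165 and 6408 of all genes tested. The 2 called were Eif4ebp1 and Eif4ebp2, and Mtor itself was at 29.4 TPM in tumors (SD 6.10, n = 3) and 43.9 TPM in controls (SD 0.959, n = 6). In the MYC network 4 of 11 genes were called higher and 0 lower (median 0.26), beside the same 14.4% and 21.5% of all genes. Mycn, the family member of SHH tumors, was at 1133, 356 and 343.9 TPM in tumors, 126, 79.8 and 10.9 TPM in adjacent cerebellum, and 3.49 to 6.67 TPM in controls (6.50 ± 0.34). Mycl rose by 3.96 ± 0.17, and Myc was at 15.9, 41.3 and 43.1 TPM in tumors. Differences between lists were not tested.

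**Figure D5:**
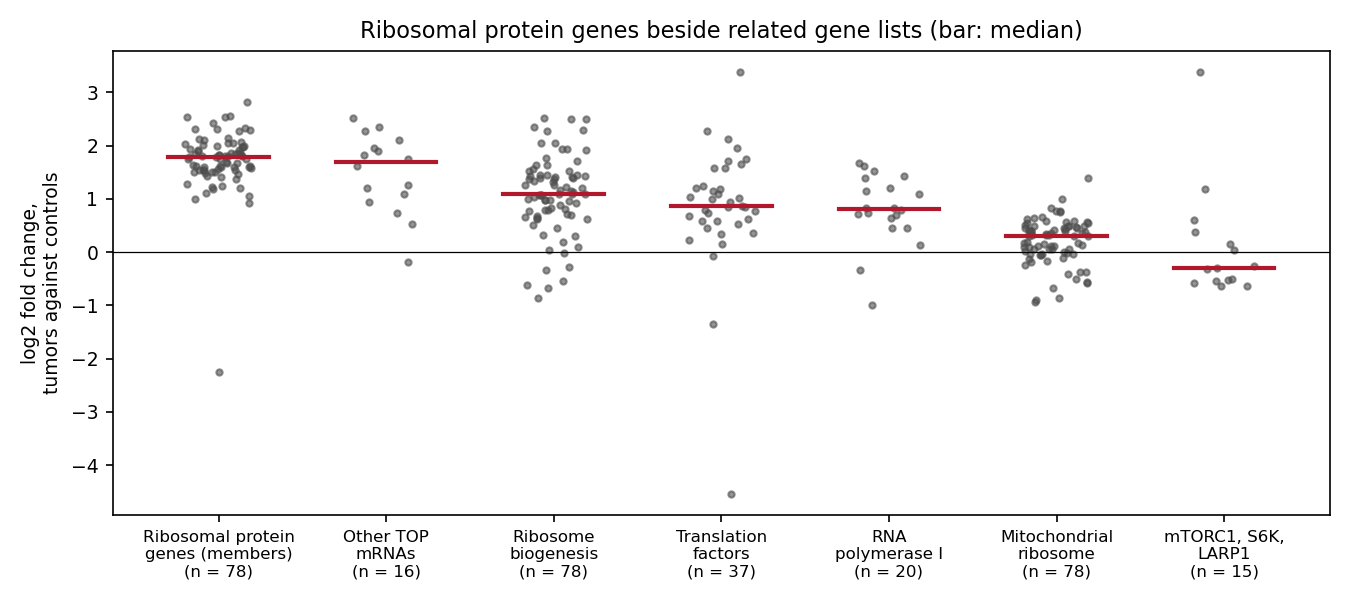
Points give the log2 fold change of single genes, 3 tumors against 6 controls, for the tested ribosomal protein genes and 6 related lists, with the median as a red bar. The median is 1.78 for ribosomal protein genes, 1.69 for other TOP mRNAs, 1.09 for ribosome biogenesis, 0.86 for translation factors, 0.80 for RNA polymerase I, 0.31 for the mitochondrial ribosome and -0.29 for mTORC1, S6 kinase and LARP1.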

How the data were processed

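RNA of 12 mouse samples in 4 groups of 3 was analysed. The authors deposited a table of TPM with 24091 gene rows, in which each sample sums to between 999793 and 999876. The authors' methods name Salmon 0.8.1 on the mm10 knownGene transcripts, summed to genes with tximport. TPM keep no read depth, so no counting interval or detection limit is given. Near-identical copies can share reads. Groups were taken from the genotype and tissue labels, and mouse numbers from the titles, with 0 sample columns unused. RefSeq symbols and GRCm38.p6 positions were joined by Entrez number for 24045 genes, including all 82 members.

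TPM were transformed to log2(TPM + 1), so fold changes of low genes are understated. A gene entered a comparison when 3 or more of its samples reached 1 TPM. The test was limma 3.58.1 run in R 4.3.3 (lmFit, then eBayes with the trend option), and p-values were adjusted by Benjamini-Hochberg across every gene that entered. Calls followed the limits of the authors' methods, an adjusted p under 0.01 together with a log2 change of 1 or more in either direction. A second limit was an adjusted p under 0.05 alone. The procedure was tested on simulated data. Paralog ratios, log2 of TPM with 0.1 added, were compared with exact two-sided permutation tests. Tumor and adjacent samples of a mouse are from the same animal, and their deviations from the group means correlated by 0.249, 0.176 and 0.152 across 15845 genes. Replicates are separate mice.

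The members and the gene lists were chosen with earlier results of these data known, so no test was made over a list. Genes named are the 6 highest and 6 lowest members by mean TPM, the 8 largest and 8 smallest changes between tumors and controls, the 4 of each kind in the other comparisons, the paralog pairs, members that bind MDM2, are mutated in Diamond-Blackfan anemia or serve as references, and the 3 extremes of each list. Members on chromosome 2, Rplp2, Rpl34, Rpsa, Rpl26, Myc and the annotated copies were named after their values were seen. Alternatives were another pseudocount, other filters, 3 other scalings, no trend, all groups in one fit, single control genotypes, a replicate block and each sample left out. Promoters and start sites are RefSeq's. Single values of some genes are not reported here.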

Additional observations from a re-analysis of the deposited data

Results flagged for a closer look

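Among 91 genes checked over the 6 control cerebella, 9 had 1 sample far from the other 5 by Dixon's criterion (the gap to the nearest sample over the whole range), and chance gives about 1 in 20. In GB512 the members Rplp0 (451.5 TPM), Rps18 (769.6 TPM) and Rpl10 (571.2 TPM) and the MYC network gene Mxd3 (3.327 TPM) were high. Genes outside this check also stood apart in GB512. Mki67 was at 5.634 TPM there (0.1802 to 0.3433 TPM in the other controls), Top2a at 8.42 TPM (0.2769 to 0.6857 TPM) and Ccnd2 at 15.72 TPM (3.268 to 7.478 TPM). Cdk1 was at 2.72 TPM (0.158 to 0.526 TPM) and Myc at 7.83 TPM (1.69 to 2.10 TPM), while Sfrp1 was lowest in GB512 at 2.929 TPM (5.342 to 6.452 TPM). In GB520 Rpl27a was low at 340.9 TPM. In GB361 Rpl32l (2.568 TPM), Rpl39l (1.061 TPM) and the ribosome maturation factor gene Sbds (113.5 TPM) were high, and in GB517 Rpl3l was high at 1.048 TPM. Rpl32l, Rpl39l and Rpl3l did not exceed 2.568 TPM in any control.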

How the results depend on the processing

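The higher level of members in tumors than in controls kept its direction and its count within 1.5 times under every alternative run, with 57 to 77 of the tested members called higher. The median log2 fold change was 1.90 with median-of-ratios scaling and 1.32 with quantile normalization, which moved the median of all genes from -0.11 to -0.01 and 0.04. Without a filter 2 members were lower in tumors at an adjusted p under 0.05, in the comparison with controls and in that with adjacent cerebellum. Leaving out 1 sample gave 75 to 76 called higher, 1 called lower, 77 higher and 1 lower at an adjusted p under 0.05, and medians of 1.67 to 1.84.

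Between tumor and adjacent cerebellum the count of 60 called higher was 38 without a filter, 21 with quantile normalization and 37 with GB370 left out, an alternative chosen after seeing the data. With quantile normalization 51 were higher at an adjusted p under 0.05, with a median of 0.88. Leaving out 1 sample gave 7 to 49 called higher (16, 7 and 9 without tumor GB344, GB359 or GB370, and 45, 14 and 49 without the adjacent sample), 1 called lower, 74 to 77 higher and 1 to 2 lower at an adjusted p under 0.05, and medians of 1.09 to 1.43. With the mouse as a replicate block, 63 members were called higher, 1 lower and 77 higher at an adjusted p under 0.05, and the block changed no count by over 1.5 times.

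Between adjacent cerebellum and controls the 35 members higher at an adjusted p under 0.05 became 14 without a filter, 13 with median-of-ratios scaling, 21 without the trend, 19 with all groups in one fit, and 0 with either control genotype alone. Leaving out 1 sample gave 0 to 73 (6, 11 and 18 without GB361, GB508 or GB512, and 12, 8 and 5 without GB517, GB519 or GB520), 0 to 7 called higher, 0 lower, and medians of 0.34 to 0.66. Between the control genotypes the median was 0.23 with median-of-ratios scaling and 0.11 to 0.17 with 1 sample left out, and all counts stayed at 0. Estimates that changed sign were Eif1 between tumors and controls (0.0505, median-of-ratios), Rps4l between adjacent cerebellum and controls (-0.0916 without adjacent GB370, and up to 0.3 without adjacent GB344), and between the control genotypes Rps13 (-0.0022 with quantile normalization, -0.0001 without GB520 and up to 0.0527 without GB517), Rps15a (0.0224 with median-of-ratios, 0.0112 with quantile normalization) and Rps28 (-0.0133 with quantile normalization, -0.0038 without GB512, -0.0194 without GB520 and up to 0.1573 without GB517), none of which had passed. Apart from the fewer samples in the fits above, the cause was not tested. Paralog ratios kept their direction and their p between tumors and controls with log2(TPM + 1).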
